A study of Mus musculus with 78 samples.

Results

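The levels of 9 genes that mark GABAergic interneurons were followed through mouse brain development and in mutants of the LIS1 complex. They are Dlx1, Dlx2, Dlx5, Lhx6, Sp8, Gad1, Gad2, Slc32a1 and Calb2, 9 of the 18194 genes that the arrays measured with a probe set of their own. The genes were chosen by name for their known roles, with earlier results of these data known. Where several probe sets measured a gene, the brightest on average across the 78 arrays was used. Levels are log2 RMA values, on which a difference of 1 unit is a doubling, and levels of different genes are not compared.

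Inhibitory interneurons of the forebrain are born in the ventral telencephalon, in the ganglionic eminences, and migrate tangentially into the cortex, hippocampus and olfactory bulb. The homeobox genes Dlx1, Dlx2 and Dlx5 act in their progenitors and newborn neurons, Lhx6 specifies those of the medial eminence, and Sp8 marks those of the lateral and caudal eminences, including cells bound for the olfactory bulb. Gad1 and Gad2 encode the enzymes that make GABA, Slc32a1 encodes the transporter that loads it into synaptic vesicles, and Calb2 encodes calretinin, a calcium-binding protein of some interneurons and of several other neuron types. Dlx genes, Gad1, Gad2 and Slc32a1 are also used by GABAergic projection neurons, among them those of the striatum.

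The series holds 26 groups of 3 arrays, each array from total RNA of brain, which the labels call biological replicates. Samples were taken at embryonic day 14 (E14), postnatal day 0 (P0) and postnatal day 14 (P14). All ages have wild types labelled as mix background A and mix background B, here mixed A and mixed B, while wild types on an inbred background (129s6) are present at P0 and P14. At each age there are Lis1 ko/+, Lis1 ko/cko, Ndel ko/+ and Ndel ko/cko brains. The labels of both Lis1 groups at P0 also hold mix, without A or B. Dcx ko/Y brains were taken at E14 and P0. Brains labelled 14-3-3 ko/ko were taken at E14 and, on the inbred background, at P0, Ndel ko/+ on the inbred background at P0, and Ndel ko/+ with mix in its label at P14. LIS1 and the Ndel1 product regulate the motor protein dynein, 14-3-3 epsilon binds phosphorylated NDEL1, and doublecortin is a microtubule protein of migrating neurons. The study asked whether these mutations change expression in similar or different ways. The Cre line that acts on the cko alleles, the part of the brain taken, whether animals were pooled and which mixed wild type belongs to which mutant are not given in the sources used here. A mutant was therefore called different only where it differed from both mixed wild types in the same direction. P-values rest on the spread among samples that the labels call biological replicates.

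Dlx2 and Sp8 are the members whose levels moved most alike across the groups and that fell most with age. The reference sequence before their start sites is shown for that reason, from RefSeq on GRCm38.p6, with GC boxes (GGGCGG or its reverse complement CCGCCC, both strands) in capitals.
Dlx2: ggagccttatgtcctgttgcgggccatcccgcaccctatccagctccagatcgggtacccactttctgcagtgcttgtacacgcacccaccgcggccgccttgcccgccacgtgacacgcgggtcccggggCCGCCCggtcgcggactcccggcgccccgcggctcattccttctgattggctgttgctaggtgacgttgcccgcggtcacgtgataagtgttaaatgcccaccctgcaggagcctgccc
Sp8: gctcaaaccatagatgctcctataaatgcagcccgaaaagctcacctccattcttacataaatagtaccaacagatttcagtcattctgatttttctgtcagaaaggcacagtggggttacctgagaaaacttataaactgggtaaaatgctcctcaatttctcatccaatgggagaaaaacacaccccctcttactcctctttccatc
The first is the 250 bases at chr2:71546755-71547004 on the minus strand, and the second the 209 bases at chr12:118846079-118846287 on the plus strand. Both lie upstream of every RefSeq transcript start of their gene. The Dlx2 stretch holds 1 GC box and the Sp8 stretch 0, and neither holds the homeodomain motif TAATTA, which is its own reverse complement. Of the 3 Sp8 promoter entries in the table, which differ in their start site, 1 holds TAATTA and 1 a GC box. Of 32851 RefSeq promoters, 32.7% hold a GC box and 4.84% TAATTA within 250 bases upstream, and 26.5% and 4.36% in a stretch of 209 bases. These matches describe the letters and say nothing about binding. Promoter entries matched 7 of the 9 genes by symbol. Dlx5 and Calb2 have no entry in the table used.

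Some arrays go against their labels or stand apart. Ywhae, the gene of 14-3-3 epsilon, read 12.68 and 12.92 in replicates 1 and 2 of E14 14-3-3 ko/ko and 9.97 in replicate 3, where mixed B read 12.97 to 13.01. Ndel1 read 9.79 to 9.87 in the libraries labelled Ndel ko/cko at E14, close to the mixed wild types (9.82 to 9.94), while Ndel ko/+ read 9.43 to 9.47. At P0 it read 9.51 to 9.63 in Ndel ko/cko and 9.27 to 9.40 in Ndel ko/+, against 9.59 to 10.01 in the mixed wild types. It was not below wild type in the libraries labelled Ndel ko/+ on the inbred background at P0 or with mix at P14. Pafah1b1, the gene of LIS1, was lower than in every mixed array in Lis1 ko/cko at E14 and P14. At P0 (10.01 to 10.12) it lay below mixed A (10.44 to 10.57) but overlapped mixed B (9.81 to 10.11), and at P14 it was not lower than in Lis1 ko/+. Whether these probe sets fall inside a deleted part is unknown here, so genotypes are those of the labels throughout. Dcx read 4.16 to 4.87 in Dcx ko/Y and at least 11.47 in other E14 and P0 groups except Ndel ko/+ inbred, replicate 2 (11.25). At P0 and P14 the first principal component of all genes parted mixed B, Ndel ko/+, Ndel ko/cko and Dcx ko/Y from mixed A, both Lis1 genotypes and every inbred or mix-labelled group. Actin 3' minus 5' signal, a sign of RNA integrity, differed in the same way at P0, at 0.27 to 0.45 on the mixed B side and 0.12 to 0.21 on the mixed A side. At E14, genes of midbrain, hindbrain and spinal cord averaged 4.70 to 4.83 in 6 arrays and 5.54 to 6.90 in the other 18.

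In the wild types, the 5 transcription factors of the set fell steeply after birth while the enzymes of GABA synthesis rose. From P0 to P14, 7 of the 9 members changed in both mixed backgrounds, 5 lower and 2 higher, where 56.4% of all 12865 genes tested changed, 22.1% lower and 34.3% higher. The median difference of the members was -1.21 and that of all genes 0.13. In the inbred wild type, whose arrays are separate, 8 of 9 changed, 5 lower and 3 higher, against 71.7% of all genes, 33.8% lower and 38% higher. Because the deposited values appear to be normalized within each age, differences relative to the median gene are given as well. Actin 3' minus 5' signal moved in the same step, from 0.15 to 0.21 at P0 to 0.50 to 0.96 at P14 in mixed A, 0.28 to 0.36 to 0.66 to 0.71 in mixed B, and 0.12 to 0.21 to 0.61 to 0.70 in inbred. Its part in the members' changes was not tested. Fewer cells of a type and less RNA per cell cannot be told apart in whole tissue.

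Dlx2, needed with Dlx1 for interneuron migration and differentiation, read 7.27, 7.70 and 7.62 in mixed A at P0 and 5.71, 5.41 and 5.5 at P14. In mixed B it read 8.34, 8.66 and 8.48 at P0 and 5.94, 5.87 and 6.03 at P14. The arrays of both ages were far apart in each background. The fall was 2.27 ± 0.20 log2 units (SE; 4.82-fold, adjusted p = 9.6e-09, limma), or -2.40 relative to the median gene, and in the inbred wild type the difference was -2.09.

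Dlx1 went from between 9.14 and 9.76 over the 6 mixed arrays at P0 to between 7.19 and 7.66 at P14. This was a fall of 2.12 ± 0.17 (4.36-fold, adjusted p = 2.36e-09, limma). Dlx5, a downstream member of the family that is also active in bone, differed by -1.27 ± 0.21 (adjusted p = 0.000161). Lhx6, which post-mitotic interneurons of the medial eminence keep, differed by -1.21 ± 0.23 (adjusted p = 0.00144), and its less bright probe set by -2.18 (adjusted p = 2.84e-08). In the inbred wild type the differences were -1.87 for Dlx1, -1.45 for Dlx5 and -1.46 for Lhx6. Sp8 differed by -2.21 ± 0.21 (adjusted p = 1.28e-07) in the mixed and -1.94 in the inbred wild types. Its group means at P14 were 3.52 to 4.11, under the median of all values (5.253), so it was tested between ages but not between groups at P14.

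Gad2, the GAD65 enzyme found at synaptic terminals, rose in every wild type by its brighter probe set. In mixed A it read 7.85, 8.15 and 7.68 at P0 and 9.95, 9.88 and 9.87 at P14. In mixed B the values were 8.84, 8.72 and 8.67, and then 10.06, 10.00 and 9.81. Every P14 array was higher than every P0 array, and the rise was 1.61 ± 0.11 (3.05-fold, adjusted p = 3.37e-09, limma), with 2.16 in the inbred wild type. The other Gad2 probe set gave 0.59 (adjusted p = 1), with 1.15 in mixed A and 0.03 in mixed B, so that the rise in mixed B rests on the brighter one alone. In the inbred wild type it gave 0.94 (adjusted p = 1.63e-06).

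Gad1, the GAD67 enzyme that supplies most of the GABA in the cell, rose less. Its values were 9.80 to 10.47 over the 6 mixed arrays at P0 and 10.51 to 11.05 at P14, without overlap. The rise was 0.63 ± 0.10 (adjusted p = 6.16e-06, limma), or 0.50 relative to the median gene, and its other probe set gave 0.46 (adjusted p = 0.393). Slc32a1 differed by 0.58 ± 0.11, short of the threshold (adjusted p = 0.0559), with 0.92 in mixed A and 0.25 in mixed B. It passed without replicate 2 of mixed B at P14 (0.61, adjusted p = 0.034). In the inbred wild type Slc32a1 rose by 0.69 (adjusted p = 7.1e-06), but its second brightest probe set, near the median of all values, gave -0.27. Calb2 differed by -0.29 in the mixed wild types (adjusted p = 1), with -0.02 in mixed A and -0.56 in mixed B, and by 0.10 in the inbred one (adjusted p = 0.638). The step in the inbred wild type was also compared with that of both mixed ones. For 0 of 9 members did it differ from both (limma; 0% of all genes). At unadjusted p under 0.05 there were 0 members, beside 983 of all 13053 genes. From mixed B alone the inbred step differed for 1 member, beside 9.77% of all genes.

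**Figure D1:**
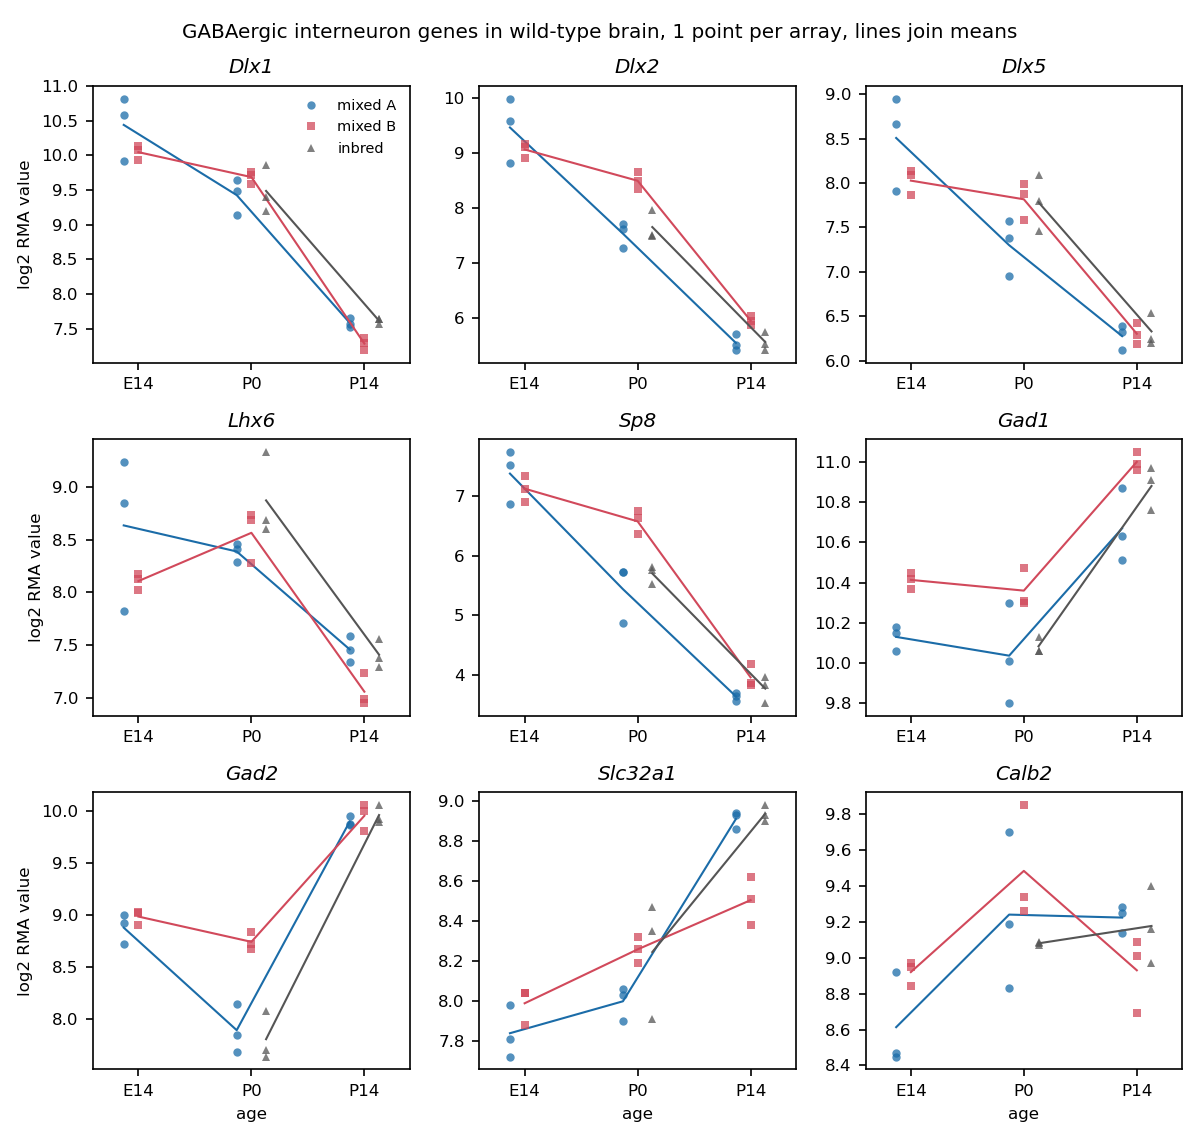
Log2 RMA value of each of the 9 genes (vertical axes) by age (horizontal axes) in wild-type brains. Each point is 1 array, lines join group means, and colours and symbols mark mixed A (blue circles), mixed B (red squares) and inbred (grey triangles). The 5 transcription factors are lowest at P14, Dlx2 falling from 7.27 to 8.66 at P0 to 5.41 to 6.03 at P14 in the mixed arrays, while Gad1 and Gad2 are highest at P14.

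From E14 to P0, 3 of 9 members changed in both mixed backgrounds, 1 higher and 2 lower, against 49.8% of all genes, 14.8% higher and 35% lower. In mixed A alone 6 members changed, against 68.5% of all genes. The median gene moved by -0.19. Dlx2 fell by 1.25 ± 0.20 (2.38-fold, adjusted p = 0.0197, limma) and Sp8 by 1.25 ± 0.21 (2.37-fold, adjusted p = 0.0346). For both genes the step was larger in mixed A (-1.94 each) than in mixed B (-0.57 and -0.55). At E14, replicates 2 and 3 of mixed A, low in hindbrain genes, read 9.59 and 9.99 for Dlx2 and 7.53 and 7.75 for Sp8, above replicate 1 (8.81 and 6.87). Without the 6 E14 arrays low in hindbrain genes the falls were -0.93 (adjusted p = 0.00194) and -0.99 (0.0188). Neither call held after quantile normalization over all arrays (-1.01 with adjusted p = 0.205, and -0.98 with adjusted p = 0.252). The Dlx2 call was also lost without replicate 2 or 3 of E14 mixed B or replicate 1 of P0 mixed B, with adjusted p of 0.0544 to 0.077. The Sp8 call was lost without replicate 1 or 3 of E14 mixed B or of P0 mixed B, with adjusted p of 0.0585 to 0.143, and with 1 fit of all arrays (0.0512).

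Calb2 rose by 0.60 ± 0.17 from E14 to P0 (1.51-fold, adjusted p = 0.00919, limma), by 0.63 in mixed A and 0.57 in mixed B. Its arrays read 8.45 to 8.97 at E14 and 8.83 to 9.85 at P0 and overlapped. The call was lost without replicate 1 of P0 mixed B (0.51, adjusted p = 0.0864) and without the 6 E14 arrays low in hindbrain genes, which leave 1 array of mixed A (0.44, adjusted p = 0.313). The other members did not pass in both backgrounds. Dlx1 differed by -0.69 (adjusted p = 0.0835), Dlx5 by -0.71 (0.46), Gad2 by -0.62 (0.0802), Gad1 by -0.07 (0.768), Lhx6 by 0.10 (1) and Slc32a1 by 0.22 (0.258). Dlx1 passed without replicate 1 of E14 mixed A (-0.82, adjusted p = 0.0249). The other Gad1 probe set was higher at P0 by 0.59 (adjusted p = 1.95e-05).

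Of 16 other lineage and migration factors tested, 7 fell and 1 rose from E14 to P0, where 35% of all genes fell and 14.8% rose. From P0 to P14, 12 fell and 1 rose, where 22.1% of all genes fell and 34.3% rose. Examples of the second step are Cxcr4, the chemokine receptor of migrating interneurons (-3.20 ± 0.28, adjusted p = 4.57e-09, limma), Lhx8, a factor of cholinergic and GABAergic neurons (-3.05), and Dlx6os1, a non-coding RNA of the Dlx5 and Dlx6 locus (-1.95). Gsx2, a progenitor factor of the lateral eminence, fell before birth (-1.61 ± 0.20, adjusted p = 2.84e-05), and so did Sox6 (-1.18). Npas1 rose by 1.55 in that step.

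The all-gene shares just given apply to the following lists as well. Of 12 GABA receptor and synapse genes, 10 rose from E14 to P0 and 8 from P0 to P14, and 0 fell in each step. Gabra5 rose by 2.64 ± 0.16 before birth, and Gabrd, the delta subunit of extrasynaptic receptors, by 3.85 ± 0.12 after it. Of 7 genes of GABA metabolism and chloride transport, 4 rose and 1 fell in each step, among them Slc12a5, the chloride exporter KCC2 (1.23 ± 0.15, then 2.12 ± 0.15), and Abat, which degrades GABA (0.45, then 1.13). Of 16 genes of mature interneuron subtypes, 8 rose and 1 fell before birth, led by Cck (2.45) and Npy (2.02). After birth 11 rose and 2 fell, led by Vip (6.14 ± 0.18), Lamp5 (5.08) and Pvalb (3.75). Progenitor and cell cycle genes fell in 9 of 9 cases from E14 to P0.

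The mixed wild types differed from each other in several members after E14. At E14, 0 of 9 members differed between mixed A and mixed B (limma; 0.0681% of all genes). At unadjusted p under 0.05 there were 0 members, beside 1866 of all 11744 genes. At P0, 5 of 9 were lower in mixed A and 0 higher, against 28.7% of all genes, 10.7% lower and 18.1% higher. At P14, 3 of 8 were higher and 2 lower, against 52.7% of all genes, 37.4% higher and 15.2% lower, with the median gene at 0.14.

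At P0 the difference was largest for Sp8, which read 5.72, 5.73 and 4.87 in mixed A and 6.36, 6.75 and 6.63 in mixed B, without overlap (-1.14 ± 0.18, 2.21-fold, adjusted p = 5.77e-05, limma). Dlx2 was lower by 0.96 ± 0.13 in size (1.95-fold, adjusted p = 1.1e-05), again with no overlap between the values given earlier. Gad2 read at most 8.15 in mixed A and at least 8.67 in mixed B (-0.85 ± 0.19, adjusted p = 0.0016). Dlx5 differed by -0.52 ± 0.16 (adjusted p = 0.0198, limma), but not without replicate 3 of mixed A (-0.34, adjusted p = 0.146) or replicate 2 or 3 of mixed B. Fits without 1 array leave 3 to 4 of 9 members lower. Gad1 overlapped at 10.30 and differed by -0.32 ± 0.12 (adjusted p = 0.0393), and this call was lost in 5 of the 6 fits that leave out 1 array and with its other probe set (-0.06). Dlx1 (-0.26, adjusted p = 0.142), Slc32a1 (-0.26, adjusted p = 0.106), Lhx6 (-0.17) and Calb2 (-0.24) did not pass.

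The inbred wild type at P0 lay with mixed A for Dlx2, Sp8 and Gad2. It read 7.49, 7.96 and 7.50 for Dlx2, 5.53, 5.77 and 5.81 for Sp8, and 7.64, 8.08 and 7.70 for Gad2. Each of these values was below every mixed B array. Dlx5, at 7.46, 8.09 and 7.80, lay with mixed B instead (7.58, 7.88 and 7.99). Against both mixed wild types, 0 of 9 members differed in the inbred one at P0 (1% of all genes) and 0 of 8 at P14 (0.244%). At either age 0 members had an unadjusted p under 0.05, beside 1739 of all 11780 genes at P0 and 923 of 12297 at P14. Against mixed B alone 3 and 4 differed, beside 45.4% and 48.6% of all genes, and against mixed A alone 0 and 0.

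At P14, Slc32a1 and Lhx6 were higher in mixed A. Slc32a1 read 8.94, 8.86 and 8.93 in mixed A and 8.62, 8.38 and 8.51 in mixed B, and was higher in mixed A by 0.41 ± 0.11 (adjusted p = 0.00423, limma). Its second brightest probe set gave -0.36 (adjusted p = 0.0237), at levels near the median of all values. Lhx6 read 7.59, 7.45 and 7.34 against 6.99, 7.24 and 6.95 (0.40 ± 0.12, adjusted p = 0.006). In both genes the 3 arrays of mixed A lay above the 3 of mixed B. The shift of the Lhx6 difference from P0 to P14 was 0.57 and did not pass (adjusted p = 0.269).

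Dlx2 stayed lower in mixed A at P14, at -0.41 ± 0.12 (adjusted p = 0.00598, limma). Gad1 did so too by its brighter probe set (-0.33 ± 0.09, adjusted p = 0.00445), while its other probe set gave 0.67 ± 0.09 (adjusted p = 1.86e-06), so the direction for Gad1 depends on the probe set. Dlx1 was higher by 0.30 ± 0.13 (adjusted p = 0.0466), a call lost without any 1 of the 6 arrays and, after quantile normalization, at 0.16 (adjusted p = 0.257). Calb2 (0.29, adjusted p = 0.07), Gad2 (-0.06) and Dlx5 (-0.03) did not pass, although Calb2 did without replicate 1 of mixed B (0.37, adjusted p = 0.044).

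**Figure D2:**
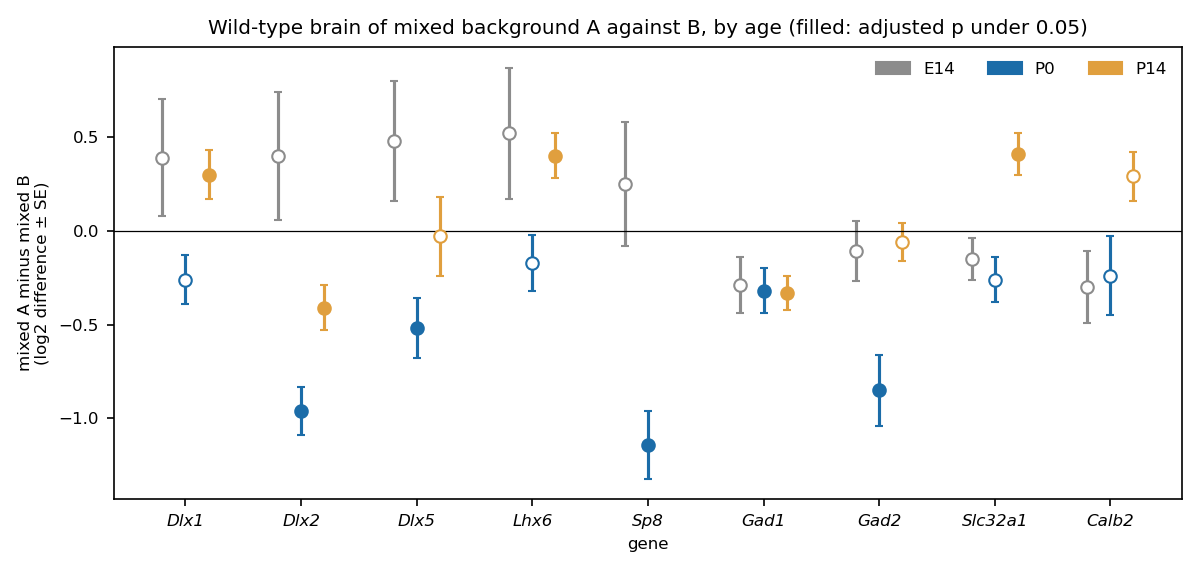
Difference between mixed A and mixed B wild types (log2, vertical axis; bars are SE from limma, 3 arrays a group) for each gene (horizontal axis) at E14 (grey), P0 (blue) and P14 (orange). Filled symbols mark adjusted p under 0.05. Sp8 (-1.14), Dlx2 (-0.96) and Gad2 (-0.85) lie lowest at P0, Slc32a1 (0.41) and Lhx6 (0.40) lie above 0 at P14, and Sp8 was not tested at P14.

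Other genes gave a mixed picture beside these differences. At P0, 1 of 14 lineage factors tested was higher in mixed A (Npas1, 0.52) and 2 lower (Prox1, -0.77, and Ackr3, -0.66). Of 7 metabolism genes 2 were higher, Slc6a11, a GABA transporter, among them (0.64 ± 0.15, adjusted p = 0.00193, limma), and 1 lower. Tshz1, a factor of olfactory bulb interneurons, was lower by 0.55 in size (-0.55 ± 0.09, adjusted p = 9.45e-05). Of 9 genes of striatal projection neurons 0 were higher and 2 lower, Pde10a among them (-0.78). At P14, 6 of 9 striatal genes were higher in mixed A and 0 lower, with a median of 1.06 against 0.14 for all genes. The dopamine receptor gene Drd2 was higher by 1.75 ± 0.29 (adjusted p = 2.69e-05) and Penk, which encodes enkephalin, by 1.46 ± 0.38. The mean level of the striatal list at P14 was 7.93 to 8.05 in mixed A, 7.95 to 8.03 in inbred and 6.88 to 7.44 in mixed B. Other lists parted the backgrounds at P14 too. Oligodendrocyte genes averaged 9.84 to 9.94 in mixed A and 9.28 to 9.50 in mixed B (5 of 9 higher and 1 lower), and astrocyte genes 10.75 to 10.87 and 10.31 to 10.46 (5 of 8 higher and 1 lower). Genes of meninges and vessels averaged 8.05 to 8.06 and 7.48 to 7.68 (6 of 8 higher and 0 lower), and those of excitatory forebrain neurons 9.05 to 9.18 and 9.27 to 9.31 (2 of 10 higher and 3 lower). The part of these lists in the P14 differences of the members was not tested.

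The age dependence of the difference between backgrounds was tested in the fit of all arrays, which takes 1 spread per gene from all groups. At E14 the SD of Dlx2 was 0.60 in mixed A and 0.14 in mixed B, so its SE and p may be too small. From E14 to P0 it shifted for 3 of 9 members, against 9.38% of all genes (5.1% upward and 4.27% downward): Dlx2 by -1.36 ± 0.31 (adjusted p = 0.00353, limma), Sp8 by -1.39 ± 0.34 (0.00593) and Gad2 by -0.74 ± 0.23 (0.0335). From P0 to P14 it shifted for 2 of 9, against 11.9% (8.55% upward and 3.36% downward): Gad2 by 0.79 ± 0.23 (adjusted p = 0.0197) and Slc32a1 by 0.66 ± 0.17 (0.00555). The E14 shift was set in part by replicates 2 and 3 of mixed A, which are among the 6 arrays low in hindbrain genes. Without those 6 arrays mixed A at E14 is replicate 1 alone, and the shift was -0.71 for Dlx2, -0.88 for Sp8 and -0.58 for Gad2. Leaving out replicate 1 of E14 mixed A instead gave 6 members, adding Dlx1, Dlx5 and Lhx6, with the share of all genes not computed. The Gad2 shift of the first step was lost in 9 of the fits without 1 array (adjusted p = 0.0509 to 0.118). That of the second was lost without replicate 3 of P0 mixed A (0.68, adjusted p = 0.0688) or of P14 mixed B (0.72, adjusted p = 0.0529), which leaves 1 member.

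At E14 the transcription factors were higher in the arrays that were low in midbrain, hindbrain and spinal cord genes. These 6 arrays are replicates 2 and 3 of mixed A, replicate 1 of Lis1 ko/+, replicates 1 and 3 of Lis1 ko/cko and replicate 2 of 14-3-3 ko/ko. Dlx5 ranged from 8.44 to 8.95 in them (median 8.61) and from 7.09 to 8.24 in the other 18 arrays (median 7.95), without overlap. Dlx1 ranged from 9.82 to 10.82 against 8.72 to 10.13, Dlx2 from 9.02 to 9.99 against 7.71 to 9.17, and Lhx6 from 8.05 to 9.23 against 7.18 to 8.43. Sp8 had medians of 7.63 and 6.88. These ranges overlapped at their ends.

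Gad1, Slc32a1 and Calb2 did not share that order, and the medians of Gad2 were close. Median Gad1 was 10.05 in the 6 arrays and 10.23 in the others, Slc32a1 was 7.68 and 7.97, Calb2 8.56 and 9, and Gad2 8.89 and 8.82. Genes of excitatory forebrain neurons had a mean level of 8.36 to 8.59 in the 6 arrays and 7.6 to 8.05 in the others. Genes of meninges and vessels had 5.95 to 8.84 and 8.53 to 9.28, and progenitor genes 10.30 to 10.43 and 9.74 to 10.26. These are descriptions of arrays that were grouped after their values were seen. The part that the region score plays in the members' levels was not tested.

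**Figure D3:**
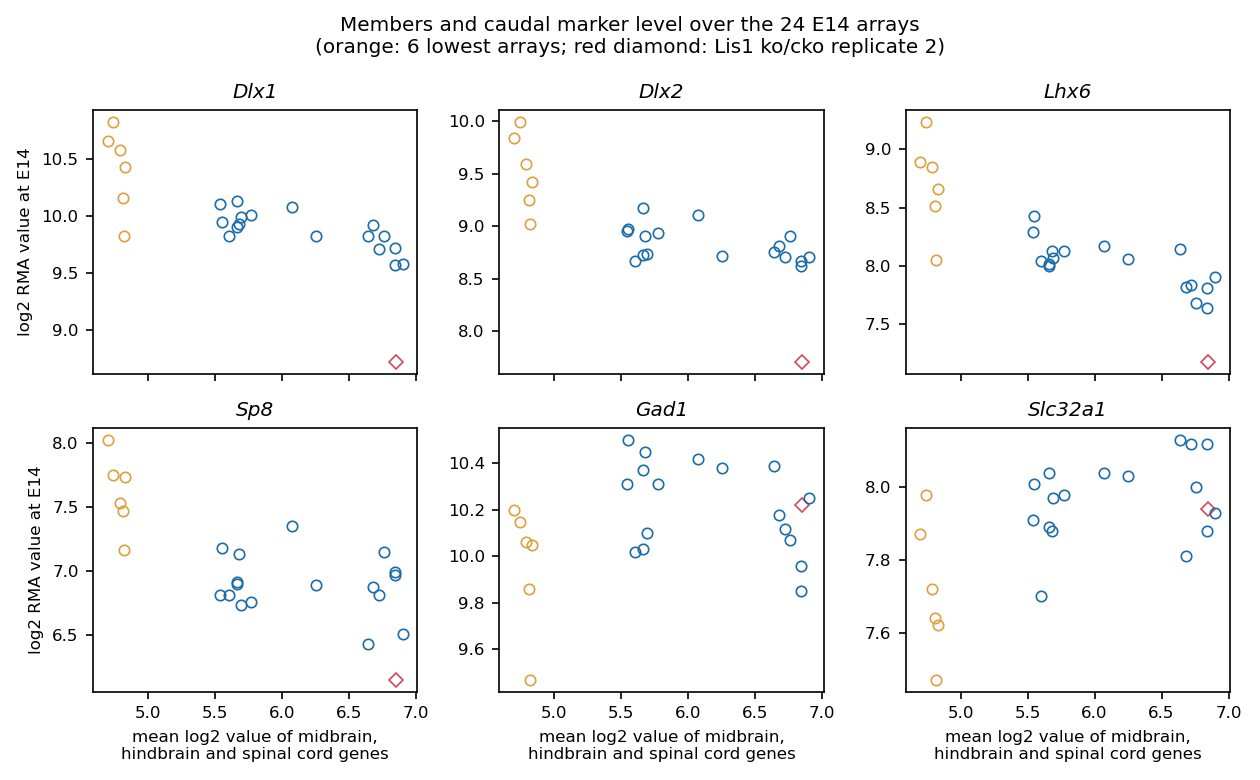
Log2 RMA value of 6 members (vertical axes) against the mean log2 level of genes of midbrain, hindbrain and spinal cord (horizontal axes) in the 24 E14 arrays, 1 point an array. Orange points are the 6 arrays with the lowest mean, at 4.70 to 4.83, and the red diamond is replicate 2 of Lis1 ko/cko, which is lowest for Dlx1 (8.72), Dlx2 (7.71) and Lhx6 (7.18).

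Against both mixed wild types, 0 of 9 members differed in any of the 6 mutant groups at E14 (limma). At unadjusted p under 0.05 there was 1 in Lis1 ko/cko, beside 837 of all 11744 genes. In each of the others there were 0 members, beside 42 (Lis1 ko/+) to 297 (Ndel ko/+) of all genes. At adjusted p under 0.05, all genes gave 0% in Lis1 ko/+, Lis1 ko/cko, Ndel ko/cko and 14-3-3 ko/ko. They gave 0.0341% in Ndel ko/+ and 0.0426% in Dcx ko/Y. The libraries labelled Ndel ko/cko differed from Ndel ko/+ in 0 of 9 members (0.128% of all genes). At unadjusted p under 0.05 there were 0 members, beside 427 of all 11744 genes.

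The spread within E14 Lis1 ko/cko was wide. Dlx1 read 10.43, 8.72 and 9.82 in its replicates, Dlx2 9.42, 7.71 and 9.02, and Lhx6 8.66, 7.18 and 8.05. Replicate 2 was the lowest of all 24 E14 arrays for these genes, while replicates 1 and 3 are among the 6 arrays low in hindbrain genes. Gad2 read 8.86, 8.29 and 7.91, a difference of -0.58 ± 0.16 from both wild types (adjusted p = 0.54, limma).

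Leaving out replicate 1 of Lis1 ko/cko gave a Gad2 difference of -0.83 ± 0.13 (adjusted p = 0.00516) from both wild types and -0.81 ± 0.13 (adjusted p = 0.00162) from Lis1 ko/+. With all arrays, Lis1 ko/cko differed from ko/+ in 0 of 9 members (0.0426% of all genes). At unadjusted p under 0.05 there were 2, beside 1616 of all 11744 genes. Without the 6 arrays, replicate 2 alone stands for Lis1 ko/cko and is assumed to vary like the other groups. Mixed A is then replicate 1 alone as well. The array of Lis1 ko/cko differed from both wild types by -1.27 for Dlx1, -1.23 for Dlx2, -0.88 for Dlx5 and -0.56 for Gad2. It was lower than Lis1 ko/+ in these genes as well, and in Sp8 (-0.91). In that array the genes of midbrain, hindbrain and spinal cord averaged 6.85. In the arrays it was compared with they averaged 5.66 to 6.07 in mixed B, 6.68 in mixed A, and 6.76 and 6.84 in Lis1 ko/+. The part of this level in the differences of that array was not tested. With the region score as a covariate over all E14 arrays, 0 passed in either comparison.

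At P0 the levels spread most widely over the groups for Dlx2, Sp8 and Calb2. Group means of Dlx2 ran from 7.08 in Lis1 ko/cko to 8.49 in mixed B, a spread of 1.41 against a median SD within groups of 0.16. Those of Sp8 ran from 5.26 to 6.58, again from Lis1 ko/cko to mixed B, and those of Calb2 from 8.34 in Ndel ko/cko to 9.52 in Lis1 ko/cko. Gad2 was lowest in the inbred wild type (7.81) and highest in mixed B (8.74). Dlx5 spread least (7.22 to 7.87, median SD 0.19). Dlx2 and Sp8 largely followed the sides of the first component. Dlx2 read 6.92 to 7.96 over the 18 arrays of the mixed A side and 7.89 to 8.66 over the 12 of the mixed B side. Sp8 read 4.87 to 6.10 and 5.97 to 6.75. Calb2 did not follow them (8.63 to 9.75 and 8.01 to 9.85), and medians were close for Dlx1 (9.45 and 9.48) and Dlx5 (7.61 and 7.58).

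The libraries labelled Ndel ko/cko had less Calb2 than the wild types at P0. Their arrays read 8.01, 8.61 and 8.41, below all arrays of mixed A (9.19, 8.83 and 9.70) and mixed B (9.85, 9.34 and 9.26). The difference was -1.02 ± 0.21 (2.03-fold, adjusted p = 0.0293, limma), with -0.90 against mixed A and -1.14 against mixed B. This was 1 of 9 members by the probe sets used, where 0.849% of all genes differed, 0.713% lower and 0.136% higher. The Calb2 call was lost without replicate 1 or 3 of Ndel ko/cko, of mixed A or of mixed B (adjusted p = 0.0508 to 0.262). Gad1 differed by -0.25 and did not pass by its brighter probe set. Its other probe set gave -0.68 (adjusted p = 0.00484, limma on every probe set), with -0.65 against mixed A and -0.71 against mixed B.

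Ndel ko/+ read 8.63, 8.53 and 8.48 for Calb2, also below all mixed arrays, and differed by -0.81 ± 0.21 short of the threshold (adjusted p = 0.054). Dlx1 in Ndel ko/+ read 8.97, 9.02 and 9.05, below all mixed arrays too, and differed by -0.54 ± 0.13 (adjusted p = 0.0726). With all arrays, 0 of 9 members passed there (limma; 4.05% of all genes). At unadjusted p under 0.05 there were 2, beside 1964 of all 11780 genes. Calb2 passed without replicate 2 of mixed A (-0.92, adjusted p = 0.0181), and Dlx1 without its replicate 3 (-0.62, adjusted p = 0.0173). Among other genes of the pathway, Abat (-0.70 ± 0.10, adjusted p = 0.0041) and Lhx8 (-2.55 ± 0.46, adjusted p = 0.0123) were lower in Ndel ko/cko, and so were the astrocyte genes Aqp4 (-1.01) and Slc1a3 (-0.56), Zic1 (-1.57) and the endothelial gene Cldn5 (-0.78). Eomes was higher (0.76). The mean of the astrocyte list, of which 2 of 7 genes were lower and 0 higher, was 8.12 to 8.27 in Ndel ko/cko, 8.62 to 8.78 in mixed A and 8.32 to 8.55 in mixed B. That of excitatory forebrain neurons, of which 0 of 10 genes passed, was 8.49 to 8.56, 8.09 to 8.35 and 8.23 to 8.31. Actin 3' minus 5' signal was 0.39 to 0.43 in Ndel ko/+ and 0.39 to 0.45 in Ndel ko/cko, above mixed B (0.28 to 0.36) and mixed A (0.15 to 0.21). The part of any of these in the level of Calb2 was not tested. Crh (1.64 ± 0.25) and Kcnc2 (0.60 ± 0.16) were higher in Ndel ko/+.

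Within the Ndel groups at P0, which both lie with mixed B on the first component, the libraries labelled Ndel ko/cko had lower Gad1 and Slc32a1 than those labelled Ndel ko/+, and higher Ndel1. Slc32a1 read 7.53, 7.94 and 7.94 against 8.34, 8.26 and 8.31 (-0.50 ± 0.12, 1.42-fold, adjusted p = 0.0102, limma). Gad1 read 9.77, 10.07 and 10.00 against 10.41, 10.30 and 10.34 (-0.40 ± 0.12, 1.32-fold, adjusted p = 0.0301). Neither gene's arrays overlapped. These were 2 of 9 members lower and 0 higher, where 9.13% of all genes differed, 3.21% lower and 5.93% higher.

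Both calls were lost without replicate 1 of Ndel ko/cko, with -0.37 for Slc32a1 (adjusted p = 0.0859) and -0.31 for Gad1 (adjusted p = 0.163). Gad1 was also lost in the other fits without 1 array except that without replicate 2 of Ndel ko/cko (adjusted p = 0.0616 to 0.109). The other probe sets gave -0.32 for Gad1 (adjusted p = 0.112) and 0.10 for Slc32a1, the latter near the median of all values. Transcription factors did not pass, at 0.38 for Dlx1 (adjusted p = 0.0722), 0.37 for Dlx2 (0.0825) and 0.44 for Lhx6 (0.0712), with -0.02 for Dlx5 and 0.02 for Sp8. Gad2 (-0.34, adjusted p = 0.287) and Calb2 (-0.20) did not pass either.

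In the same comparison, 3 of 7 metabolism genes were lower and 0 higher, Slc6a11 (-0.57), Slc12a5 (-0.55) and Aldh5a1 (-0.26). Of 14 subtype genes 3 were lower, Crh (-1.46 ± 0.25, adjusted p = 0.000758, limma), Lamp5 (-0.82) and Tac1 (-0.48), and Reln was higher (0.38). Of 14 lineage factors 1 was higher and 0 lower (Ackr3, 0.99 ± 0.23). Progenitor genes were higher in 4 of 9 cases and lower in 0. Striatal genes were lower in 3 of 9 cases and higher in 0, with a mean level of 7.33 to 7.56 in Ndel ko/cko and 7.70 to 7.72 in Ndel ko/+. Their part in the lower Gad1 and Slc32a1 was not tested. Ndel ko/cko did not differ by this test from Ndel ko/+ in any of 8 members at P14 (0 called by limma; 0.309% of all genes). At unadjusted p under 0.05 there were 0 members, beside 939 of all 12297 genes.

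The libraries labelled Lis1 ko/cko had the lowest Dlx2 and Sp8 at P0 without passing the test against both wild types. Their Pafah1b1 lay below mixed A but overlapped mixed B. Dlx2 read 7.06, 6.92 and 7.26, below mixed A, mixed B and Lis1 ko/+ (7.57, 7.62 and 7.67). It differed by -0.93 ± 0.13 from both wild types (adjusted p = 0.152, limma), by -0.45 from mixed A (adjusted p = 0.0636) and by -1.41 from mixed B (adjusted p = 2.23e-08). Sp8 read 5.36, 5.02 and 5.41, against 5.73, 5.93 and 5.84 in Lis1 ko/+. Against both wild types 0 of 9 members passed (0.331% of all genes). At unadjusted p under 0.05 there was 1, beside 1276 of all 11780 genes.

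Against Lis1 ko/+, 0 of 9 passed as well (limma; 0.569% of all genes). At unadjusted p under 0.05 there were 3 members, beside 1766 of all 11780 genes. Differences included -0.54 ± 0.13 for Dlx2 (adjusted p = 0.0626, limma), -0.57 ± 0.18 for Sp8 (0.15) and -0.24 for Slc32a1. Dlx2 passed without replicate 3 of Lis1 ko/cko (-0.63, adjusted p = 0.0492). Genes that did pass were Penk (-0.80 ± 0.18, adjusted p = 0.0372), Htr3a, a receptor gene of caudal eminence interneurons (-0.72), Tshz1 (-0.47) and Sst (-0.41). Tshz1 (-0.74 ± 0.09, adjusted p = 0.0229) and Penk (-0.94 ± 0.18, adjusted p = 0.0397) were also lower than in both wild types. The mean level of the striatal list was 7.26 to 7.34 in Lis1 ko/cko, 7.44 to 7.59 in Lis1 ko/+ and 7.50 to 7.58 in mixed A, and its part in the values of Dlx2 and Sp8 was not tested.

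**Figure D4:**
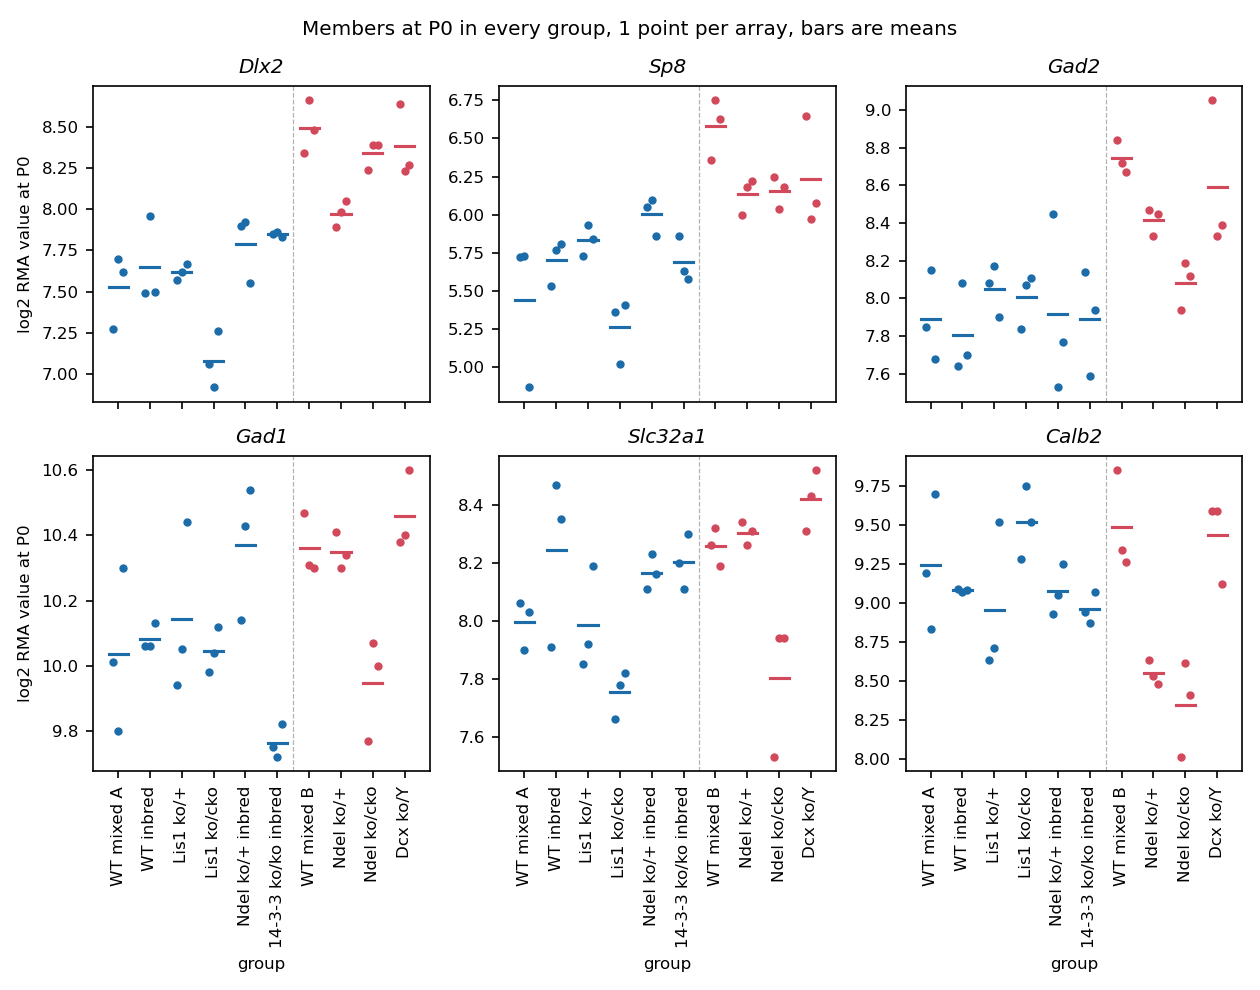
Log2 RMA values of 6 members at P0 (vertical axes) in all 10 groups (horizontal axes), 1 point an array, with bars at group means. Blue groups lie on the mixed A side of the first component and red ones on the mixed B side. Calb2 is lowest in Ndel ko/cko (8.01 to 8.61) and Ndel ko/+ (8.48 to 8.63), and Dlx2 in Lis1 ko/cko (6.92 to 7.26).

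The other mutants at P0 gave 0 members by limma. At adjusted p under 0.05, 0% of all genes differed in Lis1 ko/+ and 0.0255% in Dcx ko/Y. At unadjusted p under 0.05 there were 0 members in each, beside 183 and 346 of all 11780 genes. In 14-3-3 ko/ko on the inbred background, 0.0255% of all genes differed at adjusted p under 0.05. At unadjusted p under 0.05 there was 1 member, beside 1161 of all 11780 genes. That member was Gad1, at 9.75, 9.72 and 9.82 against 10.06, 10.06 and 10.13 in the inbred wild type, without overlap (-0.32 ± 0.12, adjusted p = 0.4). Ndel ko/+ on the inbred background also had 1, Gad1 at 0.29 (adjusted p = 0.243), beside 1791 of all 11780 genes at unadjusted p under 0.05. At adjusted p under 0.05, 0.255% of all genes differed.

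At P14, the libraries labelled Lis1 ko/cko had more Calb2 than the wild types. The arrays read 9.91, 9.59 and 9.54, above mixed A (9.14, 9.28 and 9.25) and mixed B (9.09, 8.69 and 9.01). The difference was 0.60 ± 0.13 (1.52-fold, adjusted p = 0.0437, limma), with 0.46 against mixed A and 0.75 against mixed B, and was the 1 of 8 members to pass, where 6.32% of all genes did, 3.52% higher and 2.8% lower.

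The call was lost without replicate 1 or 2 of Lis1 ko/cko, any replicate of mixed A or replicate 3 of mixed B (adjusted p = 0.0557 to 0.28). Lis1 ko/+ read 9.45, 9.33 and 9.39, also above both wild types, and ko/cko differed from it by 0.29 (adjusted p = 0.181). Against Lis1 ko/+, 0 of 8 members passed (8.02% of all genes). At unadjusted p under 0.05 there was 1, beside 3112 of all 12297 genes. At P0 the mean of Calb2 was highest in Lis1 ko/cko too (9.52), but mixed B lay next to it (9.48), within the spread.

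Genes of the pathway that passed in the same comparison went both ways. Lhx8 (1.78 ± 0.28, adjusted p = 0.0292, limma) and Kcnc1, a potassium channel gene of fast-spiking interneurons (0.69 ± 0.10, adjusted p = 0.0204), were higher in Lis1 ko/cko than in both wild types. Gabrb2 (-0.78), Gabra4 (-0.48), Calb1 (-0.28) and Lamp5 (-0.28) were lower. Of 7 metabolism genes 0 differed.

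Markers of other cells moved in that comparison as well. Gfap, of reactive astrocytes, was higher by 1.36 ± 0.21 (adjusted p = 0.0389, limma; 1 of 8 astrocyte genes higher and 0 lower), and so were Vim (0.93) and C1qb of microglia (0.71; 1 of 7 higher). Of 8 progenitor and cell cycle genes 3 were lower, Mki67 among them (-1.16), and 1 higher, which was Vim. Neurod1 of the excitatory list (-0.84) and Olig2 of the oligodendrocyte list (-0.64) were lower as well. The olfactory bulb list, of which 0 of 6 genes passed, had a mean level of 6.03 to 6.32 in Lis1 ko/cko, 5.84 to 5.94 in mixed A and 5.75 to 5.83 in mixed B. The progenitor list read 6.33 to 6.72, 6.92 to 6.94 and 6.72 to 6.96. Their part in the level of Calb2 was not tested. The other P14 groups had 0 members, with 0% of all genes in Lis1 ko/+ and Ndel ko/+, 0.0895% in Ndel ko/cko and 0.114% in the Ndel ko/+ brains with mix in the label. At unadjusted p under 0.05 they had 0 members as well. Beside these stood 194 of all 12297 genes in Lis1 ko/+, 128 in Ndel ko/+, 385 in Ndel ko/cko and 533 in Ndel ko/+ with mix.

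On the sides of the first component at P14, Slc32a1 read 8.82 to 9.10 over 15 arrays on the mixed A side and 8.22 to 8.83 over 9 on the mixed B side. Lhx6 read 7.22 to 7.59 and 6.79 to 7.24. The levels of Ndel ko/+ and Ndel ko/cko thus lay with mixed B, and those of the Lis1 groups and of Ndel ko/+ with mix in the label with mixed A, the sides on which all genes placed them. The mean level of the striatal list did so in part, at 6.86 to 8.10 in Ndel ko/+ and 6.69 to 7.70 in Ndel ko/cko against 7.76 to 8.09 in Lis1 ko/+.

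Against a single mixed wild type many more members were called, mostly where that wild type lay on the other side of the first component. Ndel ko/+ at P0 differed in 7 of 9 from mixed A (42.9% of all genes) and in 3 from mixed B (9.47%). Ndel ko/cko at P0 differed in 4 from mixed A (33.8%) and in 4 from mixed B (3.72%). Dcx ko/Y at P0 differed in 5 from mixed A (30%) and in 0 from mixed B.

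Lis1 ko/cko differed from mixed B in 1 of 9 members at E14 (1.76% of all genes), in 7 of 9 at P0 (32.8%) and in 5 of 8 at P14 (59.7%), and from mixed A in 0, 0 and 1. Lis1 ko/+ differed from mixed B in 3 of 9 at P0 (20.7%) and in 4 of 8 at P14 (52.6%), and from mixed A in 0 at each age. At P14, Ndel ko/+ differed from mixed A in 4 of 8 (52.3%) and Ndel ko/cko in 5 (52.8%). The Ndel ko/+ brains with mix in the label differed from mixed B in 3 of 8 (52.6%). In these comparisons with a single wild type, background and genotype cannot be told apart.

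The members did not move as a block across the 26 groups. After the mean of each age was subtracted, the correlations of group means over the 36 pairs ran from -0.39 (Sp8 with Calb2) to 0.88 (Dlx2 with Sp8), with 9 above 0.5 and 7 below 0. Dlx1 went with Lhx6 at 0.73, and Gad1 with Gad2 at 0.65. Gad2 went with Sp8 at 0.68 and with Dlx2 at 0.65. These are descriptions over groups that share backgrounds and a normalization.

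Over the same group means, the gene most like Dlx2 outside the set was Sox1, a neural progenitor factor (r = 0.87), followed by Sertad4 (0.85). For Dlx5 it was Dlx6os1 (0.69), which is transcribed beside it, and Sox6 (0.68). Slc32a1 was most like Nfatc2 (0.85), Cpne5 (0.84) and the striatal gene Penk (0.82). Calb2 went with Hap1, Spint2 and Irs4 (0.87 each), Gad1 with Nrxn3, Cpe and Kcnd2 (0.79 each), Gad2 with Pitpnb (0.85), Lhx6 with Anp32a (0.82) and Dlx1 with Metap1d (0.76).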

How the data were processed

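Brain RNA of mice, isolated with Trizol per the labels' protocols, was hybridised to 78 Affymetrix arrays, each with 45101 probe sets. The deposited values are log2, and RMA is named for them in the submitters' processing notes, its version not given in the sources used here. They range from 2.606 to 14.24. The sorted values of 2 arrays differed by a root mean square of 0.03424 where they shared an age and 0.1565 where they did not, so normalization probably ran within ages. All columns were matched to samples.

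Probe sets with 1 gene numbered 34958 and those with several 932, which were not used. Symbols were updated by Entrez ID for 34754, and the brightest probe set per gene left 18194 genes. Of the members, 5 have 1 probe set and 4 several. Testing needed 1 group mean of at least 5.253, the median over the whole table. That kept 11744 (E14), 11780 (P0) and 12297 genes (P14), 12865 for the wild-type fit used for steps of development, and 13053 for interactions, fitted on all arrays.

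Linear models with 1 mean per group were fitted with limma 3.58.1 in R 4.3.3 (with version 1.17.8 of data.table), with variances moderated along a trend on the mean. P-values are two-sided and adjusted by Benjamini-Hochberg over all genes tested, with calls made at adjusted p under 0.05. Percentages of all genes are of such calls, also where they stand beside counts of members at unadjusted p. Against both mixed wild types, and for both mixed backgrounds in development, a gene's p-value is the larger of its 2 p-values where the signs agree and 1 otherwise. Its difference is the mean of both and its SE the larger. The fits were tested on simulated data.

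The genes that may be named are all 9 members, up to 4 called genes with the largest change from each gene list in a comparison, and the 3 genes most like each member. The members and lists were chosen with earlier results of these data known. Lists were written from general knowledge of cell types and pathways. Genes of theirs with no probe set of their own were not analysed here. Alternatives were no filter, a filter at 7.627 (the 75th percentile), every probe set, 1 fit of all arrays, quantile normalization, each mixed wild type alone, a block on the replicate number and leaving out each array. The region covariate and leaving out 6 E14 arrays were chosen after seeing the data. The number of arrays limits the precision.

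Replicate numbers showed no pairing of samples when all pairs of groups of an age were pooled. Deviations of same-numbered arrays had a median correlation of -0.00147 (-0.807 to 0.744) and those of other arrays -0.000657 (-0.816 to 0.778). This median cannot exclude a pairing among some groups, which was not tested. At P0, Gad1 was highest in replicate 3 of every group on the mixed A side, such as mixed A (10.30) and Lis1 ko/+ (10.44). On the mixed B side this held only in Dcx ko/Y.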

Additional observations from a re-analysis of the deposited data

Results flagged for a closer look

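The difference between the mixed wild types changed with age in 5 tests of the difference itself, by limma over 13053 genes. Between E14 and P0 the difference of mixed A from mixed B shifted by -1.36 for Dlx2, by -1.39 for Sp8 and by -0.74 for Gad2. At E14 the arrays of the 2 backgrounds overlapped for these genes and at P0 they did not. Between P0 and P14 the difference shifted by 0.79 for Gad2 and by 0.66 for Slc32a1. The difference of Gad2 was -0.85 at P0 and -0.06 at P14, where the arrays of both backgrounds overlapped. Slc32a1 went from -0.26 to 0.41 by its brightest probe set, while the shift was -0.04 by its second brightest one, whose levels lie near the median of all values. Without the 6 E14 arrays low in hindbrain genes, mixed A at E14 is replicate 1 alone. The 3 shifts of the first step were then smaller in size, with Dlx2 at -0.71.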

How the results depend on the processing

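Counts are of members called. For each mixed wild type alone the shares of all genes are given above. For the other settings, and for the fits without 1 array, those shares were not computed. Such counts therefore show nothing particular to the members. Against mixed A alone, 5 were called in Dcx ko/Y at P0, 7 in Ndel ko/+ at P0, 4 at P14, 4 in Ndel ko/cko at P0, 5 at P14, and 6 from E14 to P0. Against mixed B alone, 3 were called in Lis1 ko/+ at P0, 4 at P14, 1, 7 and 5 in Lis1 ko/cko at E14, P0 and P14, 3 in Ndel ko/+ and 4 in Ndel ko/cko at P0, 3 in Ndel ko/+ with mix at P14, 3 and 4 in the inbred wild type at P0 and P14, and 1 in its interaction. With 1 fit of all arrays there were 0 in Lis1 ko/cko at P14, 1 in Ndel ko/+ at P0 and, between mixed A and B, 3 at P0 and 2 at P14. The stricter filter gave 1 in Ndel ko/+ at P0 and 3 between mixed A and B at P14. No filter, and the replicate block, each gave 0 in Lis1 ko/cko at P14 (Calb2 0.60, adjusted p = 0.054 and 0.051), and the block moved no other count of members by over 1.5 times. Every probe set gave 2 in Ndel ko/cko at P0, with Gad1 called by its other probe set. Leaving out the 6 E14 arrays low in hindbrain genes left 1 array each for Lis1 ko/cko and mixed A at E14. Counts of members called are therefore not given for that setting. Signs turned for Gad1 with its other probe set (mixed A against B at P14, 0.67) and for Slc32a1 with its second brightest one (Ndel ko/cko against ko/+ at P0, 0.10; inbred P0 to P14, -0.27; P0 to P14 interaction, -0.04; mixed A against B at P14, -0.36). The cause was not tested.

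Without 1 array at a time, counts ran from 0 to 1 in Lis1 ko/cko at E14 and P14, in Lis1 ko/cko against ko/+ at E14 and P0, in Ndel ko/+ and Ndel ko/cko at P0, and from 0 to 2 in Ndel ko/cko against ko/+ at P0. They ran from 0 to 4 from E14 to P0 (0 without P0 mixed B replicate 1, 1 without E14 mixed B replicate 3), 7 to 8 from P0 to P14, 8 to 8 in the inbred wild type, 2 to 6 and 1 to 2 in the interactions, 3 to 4 between mixed A and B at P0 and 4 to 5 at P14. The other comparisons stayed at 0.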
